A study of Mus musculus with 8 samples.

Results

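Heat shock proteins are molecular chaperones, and 7 of their genes were followed through culture of mouse spleen CD8+ dendritic cells. The rule named 8 genes, Hspa1b, Hspa8, Hsph1, Hsp90aa1, Hsp90ab1, Hspd1, Hspe1 and Hspa5, and took every probe set that the platform annotation gives to one of them. It found 9 probe sets for 7 genes, among 12422 probe sets tested and 8251 genes with a probe set. Hsp90ab1 had none and is not analysed here. CD8+ dendritic cells capture antigen and cross-present it to T cells. Female DBA/2J mice aged 60 days had been given 10 µg of Flt3-L, the growth factor Flt3 ligand, over 9 days, which expands dendritic cells, so all groups are of cells expanded in this way. The purified cells were then cultured for 16 hours with mouse interferon gamma (IFN-γ) at 200 U/ml, with IFN-γ for 4 hours, in medium alone for 16 hours, or in medium alone for 4 hours. Each of these 4 groups has 2 arrays (Affymetrix MG-U74Av2, total RNA), all 8 arrays are of cultured cells, and the small number of arrays limits the precision. The labels do not say that the arrays numbered 1 and 2 in a group are separate mice or separate cultures. The p-values therefore describe the spread between arrays and may reflect technical spread alone.

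Chaperones of the HSP70 family bind exposed stretches of unfolded proteins in cycles driven by ATP, with J-domain proteins that start the cycle and exchange factors of the HSP110 family that reset it. HSP90 acts later, on signalling proteins such as kinases and hormone receptors, while HSP60 and its lid HSP10 fold proteins in a closed chamber inside mitochondria. Heat shock factor 1 switches on many of these genes under heat or proteotoxic stress by binding repeats of the letters GAA and TTC, called heat shock elements, whereas the HSP70 of the endoplasmic reticulum answers to the unfolded protein response through ER stress response elements. In dendritic cells these proteins also take part in antigen handling.

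Stretches before the start sites of 4 of the genes are shown because they hold matches to the elements of the 2 stress responses. All are from RefSeq, build GRCm38.p6, and are written 5′ to 3′ along the gene's own strand, with the matched letters of the elements in capitals.
Hspa1b, chr17:34959239-34959388, minus strand: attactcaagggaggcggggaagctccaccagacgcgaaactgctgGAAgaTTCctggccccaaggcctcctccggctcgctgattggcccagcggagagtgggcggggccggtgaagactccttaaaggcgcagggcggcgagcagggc
Hsph1, chr5:149636337-149636486, minus strand: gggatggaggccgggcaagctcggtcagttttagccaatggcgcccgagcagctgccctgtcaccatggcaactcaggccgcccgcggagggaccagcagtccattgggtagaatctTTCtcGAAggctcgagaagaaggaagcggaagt
Hspe1, chr1:55088053-55088082, plus strand: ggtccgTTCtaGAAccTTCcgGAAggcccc
Hspa5, chr2:34771940-34772089, plus strand: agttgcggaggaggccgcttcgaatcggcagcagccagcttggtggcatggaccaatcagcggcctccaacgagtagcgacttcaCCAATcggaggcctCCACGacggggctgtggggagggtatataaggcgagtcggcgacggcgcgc

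The motifs were searched on both strands of the 250 bases before each start site in 32851 RefSeq windows. The 3-unit heat shock element GAANNTTCNNGAA was found in 0.466% of all windows. Its 2-unit parts, GAANNTTC and TTCNNGAA, which lie within it and read the same on both strands, were found in 6.69% and 7.17%. The ER stress response element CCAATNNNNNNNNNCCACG was found in 0.113%. Hspe1 carried the 3-unit element, in overlapping matches on the 2 strands between 89 and 72 bases before its start site. Hspd1 and Hspe1 are neighbours that share this stretch, which lies between 144 and 127 bases before one of the start sites of Hspd1. Hspa1b carried the 2-unit element GAANNTTC between 104 and 97 bases before its start site, and Hsph1 carried TTCNNGAA between 33 and 26 bases before the start site of the window shown. Hspa5 carried the ER stress response element between 65 and 47 bases before its start site. Windows of Hspa8 and Hsp90aa1 were not used here. A match describes these letters only.

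Intensities are deposited RMA summaries on a linear scale, taken here to log2. Array medians lay within 51.3 to 53.7 on the linear scale, and 15 antisense control probe sets, which read unspecific signal, had medians within 44.9 to 61.2. Replicate arrays correlated across probe sets at r = 0.989 to 0.997. Of 11 listed markers of CD8+ dendritic cells 10 were measured. Of these, 0 lay below the antisense level with IFN-γ at 16 hours and 1 in each other group. Cd8a stood at 8.90 with IFN-γ at 16 hours, 8.99 with IFN-γ at 4 hours, 8.80 in medium at 16 hours and 8.85 in medium at 4 hours on the log2 scale. That was 3.14, 3.38, 3.01 and 3.16 above the antisense level. In the same order Itgax stood 0.54, 0.64, 0.64 and 0.79 above it. The T cell marker Thy1 read 8.87, 8.90, 8.73 and 9.21, so Cd8a alone does not settle the label. Between 16 and 4 hours, 1 of the 10 dendritic cell markers was called lower in each comparison. Irf8 was called in medium (log2 difference -0.25 with IFN-γ and -0.47 in medium, adjusted p = 0.312 and 0.0385, limma) and Flt3 with IFN-γ (-0.52 and -0.33, adjusted p = 0.0385 and 0.135, limma). Ly75 (-1.03 and -0.99) and Batf3 (-0.37 and -0.36) were called lower in both with the array number as a block but not without it, and the block called 3 of 10 markers lower with IFN-γ and 4 of 10 in medium. Xcr1 stood at 0.01, -0.13, -0.16 and -0.22 against that level. Markers of other cells were present too. Over the 12 macrophage and monocyte markers the summed intensity was 3411 to 4255 with IFN-γ at 16 hours, against 1384 to 1392 with IFN-γ at 4 hours, and 4683 to 5507 in medium at 16 hours, against 1823 to 1876 in medium at 4 hours. Of these 12, 9 were called higher at 16 hours with IFN-γ and 10 in medium, where 102 and 212 of all 12422 probe sets were. Spic was called lower in each and lay below the antisense level at 16 hours. Mrc1 and Vcam1 lay below that level in all 4 groups. The 5 B cell markers summed to 2855 to 3046 with IFN-γ at 16 hours, against 1932 to 2033 with IFN-γ at 4 hours, and 2603 to 2863 in medium at 16 hours, against 2244 to 2588 in medium at 4 hours. The 3 erythroid markers summed to 215 to 258 with IFN-γ at 16 hours, against 377 to 396 with IFN-γ at 4 hours, and 208 to 221 in medium at 16 hours, against 420 to 425 in medium at 4 hours, where Hba-a1 and Hbb-b2 were called lower in both and Alas2 was not, and Hbb-b2 and Alas2 lay below the antisense level in every group. Over all 8 arrays the 6 T cell markers summed to 1544 to 1767, the 6 neutrophil markers to 3884 to 4965, the 3 NK cell markers to 316 to 448 and the 1 measured plasmacytoid dendritic cell marker to 64.7 to 92.2. The 3'/5' signal ratio of Actb, which reflects RNA integrity and labelling, was 1.66 to 1.68 with IFN-γ at 16 hours, 1.47 to 1.65 with IFN-γ at 4 hours, 1.57 to 1.63 in medium at 16 hours and 2.04 to 2.20 in medium at 4 hours. The part of these values in the results that follow was not tested. In bulk RNA, fewer cells of a type and less RNA per cell cannot be told apart.

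The arrays numbered 1 read lower for the heat shock proteins, by most at 16 hours. All 7 genes were lower on array 1 than on array 2 with IFN-γ at 16 hours (median log2 difference -0.56) and in medium at 16 hours (median -0.38). Over all 12422 probe sets the medians were 0.08 and 0.04, and 40.1% and 42.5% were lower on array 1. At 4 hours 6 of 7 genes were lower on array 1 in each group (medians -0.13 with IFN-γ and -0.11 in medium). Over all probe sets these shares were 49.5% and 51.3%. Results over time are therefore also given without both 16-hour arrays numbered 1.

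At 16 hours, transcripts of the inducible HSP70 gene Hspa1b and, on its brighter probe set, of the HSP60 gene Hspd1 were lower than at 4 hours with and without IFN-γ. Those of Hsp90aa1 and Hsph1 were called lower in medium, and no gene was called for IFN-γ against medium. In medium 4 of 7 genes were called lower at 16 hours, namely Hspa1b, Hspd1, Hsp90aa1 and Hsph1, with fold differences between 1.87 and 2.39, and none was called higher (limma over all probe sets, adjusted p under 0.05). Of all probe sets 2.57% were called lower in that comparison. With IFN-γ 2 of 7 were called lower, Hspa1b and Hspd1, against 1.3% of all probe sets. With the array number as a block, 5 of 7 were called lower with IFN-γ and 5 of 7 in medium, against 6.94% and 8.09% of all probe sets. In both comparisons 5 of 7 genes had both 16-hour arrays below both 4-hour arrays, which held for 17.7% of all probe sets with IFN-γ and 20.8% in medium. The 7 differences were all below 0, with a median of -0.57 with IFN-γ and -0.90 in medium on the log2 scale, while the median over all probe sets was 0.05 in each. No array is shared between these comparisons, but they are not independent. The spread was estimated from all 8 arrays together. The differences between arrays 1 and 2 correlated at r = 0.740 between the 16-hour groups. Without both 16-hour arrays numbered 1, 2 genes were called lower with IFN-γ and 4 in medium, against 0.861% and 2.34% of all probe sets.

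**Figure D1:**
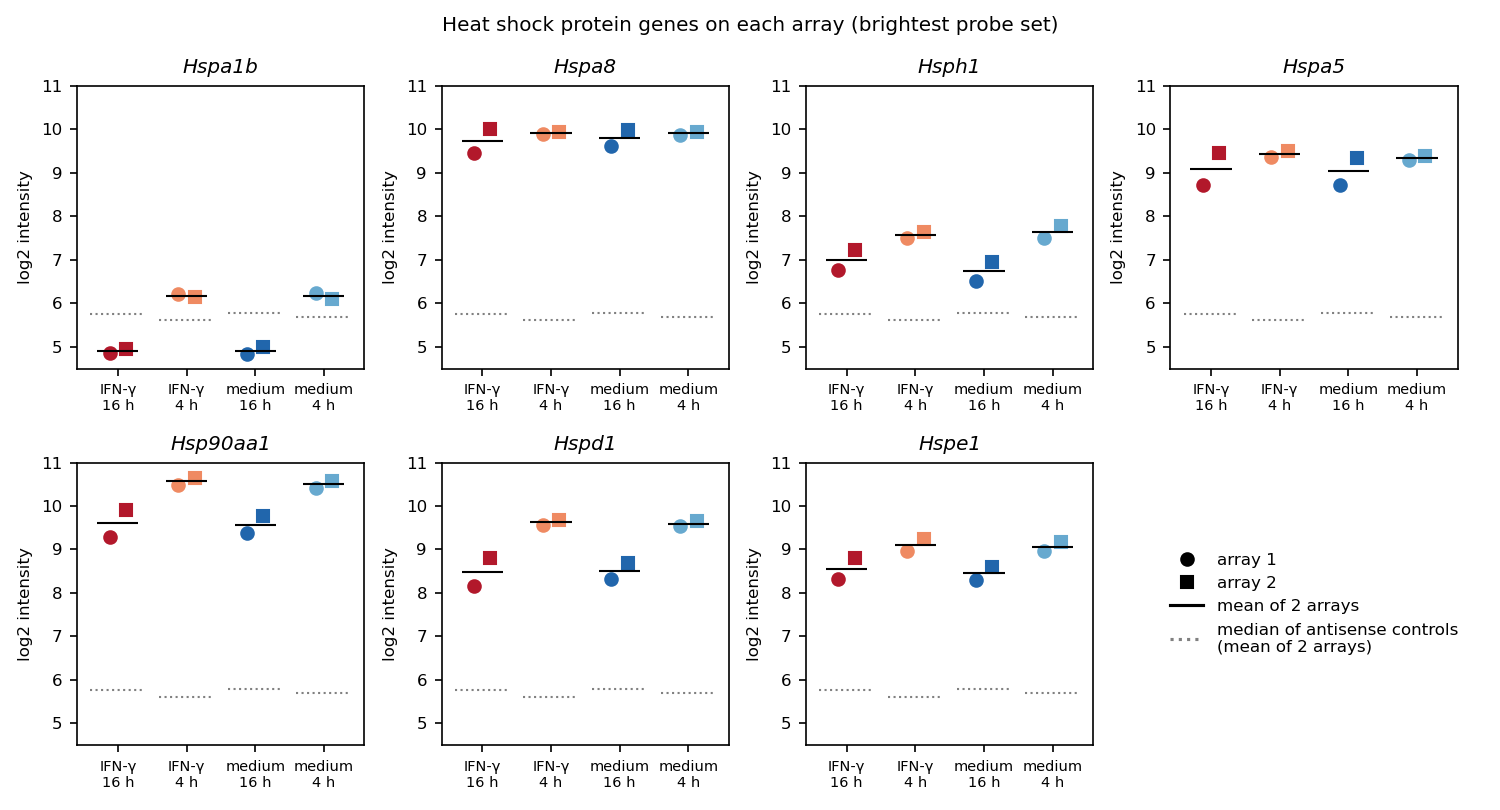
Log2 intensity (vertical axis) of the brightest probe set of each heat shock protein gene on every array, by group, with array 1 as circles, array 2 as squares, the mean of 2 arrays as a bar and the antisense control level as a dotted line. Hspa1b falls below the dotted line at 16 hours, Hsp90aa1 and Hspd1 keep a gap between the times, and the circles at 16 hours sit below the squares in every panel.

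Hspa1b encodes an inducible cytosolic HSP70 with low levels in unstressed cells. Its log2 intensity was 4.87 and 4.95 on the arrays of IFN-γ at 16 hours, against 6.21 and 6.14 with IFN-γ at 4 hours. In medium it was 4.83 and 4.998 at 16 hours, against 6.24 and 6.09 at 4 hours. The 4 arrays at 16 hours lay far below the 4 arrays at 4 hours, with no overlap, and the groups with and without IFN-γ overlapped at each time. The log2 difference was -1.26 with IFN-γ (SE 0.12, adjusted p = 0.0013, limma) and -1.26 in medium (SE 0.12, adjusted p = 0.000827, limma), 2.40-fold and 2.39-fold lower, and without both 16-hour arrays numbered 1 it was -1.22 and -1.17. The probe set stood 0.56 and 0.48 above the antisense level at 4 hours, with and without IFN-γ, and 0.85 and 0.87 below it at 16 hours, so the size of the change is uncertain. Both calls held under all 18 alternatives tried, with adjusted p (limma) up to 0.0289 with IFN-γ and 0.0207 in medium.

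Hspa1a, the neighbouring copy on the same chromosome, is not among the named genes but encodes a nearly identical HSP70, and 247 of the 250 bases before the 2 start sites match (98.8%), including the heat shock element. Signal from the 2 transcripts may not be separated by their probe sets. Hspa1a had 6.04 and 6.15 with IFN-γ at 16 hours, against 7.39 and 7.24 with IFN-γ at 4 hours, and 6.38 and 6.29 in medium at 16 hours, against 7.23 and 7.27 in medium at 4 hours. Its log2 difference was -1.22 with IFN-γ (adjusted p = 0.00121, limma) and -0.92 in medium (adjusted p = 0.00295, limma), and it stood above the antisense level in all 4 groups.

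Hspa8 encodes the constitutive cytosolic HSP70, which also uncoats clathrin vesicles. Its log2 intensity was 9.45 and 10.01 with IFN-γ at 16 hours, against 9.90 and 9.95 with IFN-γ at 4 hours, and 9.62 and 10.00 in medium at 16 hours, against 9.88 and 9.94 in medium at 4 hours. Array 1 was the low one in both 16-hour groups, and array 2 of those groups lay above the 4-hour arrays, so the groups overlapped. The log2 difference between the times was -0.20 with IFN-γ (95% interval -0.62 to 0.22, adjusted p = 0.675, limma) and -0.10 in medium (-0.52 to 0.32, adjusted p = 0.819, limma). It was 0.08 and 0.09 without both 16-hour arrays numbered 1. A fall as large as that of Hspa1b lies outside these intervals.

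Hsph1 encodes HSP110, an exchange factor that releases ADP from HSP70 and helps to dissolve aggregates. Its log2 intensity was 6.77 and 7.23 with IFN-γ at 16 hours, against 7.50 and 7.63 with IFN-γ at 4 hours. In medium it was 6.52 and 6.95 at 16 hours, against 7.50 and 7.77 at 4 hours. Both 16-hour groups lay below both 4-hour groups, and the lowest array was array 1 of medium at 16 hours. The log2 difference was -0.57 with IFN-γ (SE 0.19, adjusted p = 0.194, and 0.00767 with the array number blocked, limma) and -0.90 in medium (SE 0.19, adjusted p = 0.0341, limma). Without both 16-hour arrays numbered 1 these differences were -0.34 and -0.69. The call in medium was lost without array 1 or 2 of medium at 4 hours (adjusted p = 0.123 and 0.26, limma), array 1 of medium at 16 hours (0.193) or either array of IFN-γ at 4 hours (0.0676).

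Hsp90aa1 encodes the inducible cytosolic HSP90, which matures kinases and steroid receptors. On its brighter probe set the log2 intensity was 9.29 and 9.91 with IFN-γ at 16 hours, against 10.49 and 10.64 with IFN-γ at 4 hours. In medium it was 9.37 and 9.77 at 16 hours, against 10.41 and 10.58 at 4 hours. The 4 arrays at 16 hours were all lower than the 4 arrays at 4 hours. The log2 difference was -0.97 with IFN-γ (SE 0.21, adjusted p = 0.05003, just above the threshold, and 0.00117 with the array number blocked, limma) and -0.92 in medium (SE 0.21, adjusted p = 0.0401, limma), 1.95-fold and 1.90-fold lower, and without both 16-hour arrays numbered 1 it was -0.65 and -0.73. The dimmer probe set went the other way and stood over 2 log2 units below the antisense level in every group, with a log2 difference of 0.20 with IFN-γ and 0.53 in medium (adjusted p = 0.2, and 0.0357 with the array number blocked, limma). With IFN-γ the fall of Hsp90aa1 was called under 7 of the 18 alternatives. Averaging both probe sets took the medium difference to -0.20 (adjusted p = 0.412, limma). The medium call of the brighter one was also lost without any single array of medium at 16 or 4 hours (adjusted p = 0.0526 to 0.272, limma) or of IFN-γ at 4 hours (0.0757).

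Hspd1 encodes HSP60, the barrel of the mitochondrial chaperonin, and Hspe1 encodes HSP10, its lid. On the brighter probe set of Hspd1 the log2 intensity was 8.15 and 8.80 with IFN-γ at 16 hours, against 9.57 and 9.67 with IFN-γ at 4 hours. In medium it was 8.32 and 8.70 at 16 hours, against 9.54 and 9.65 at 4 hours. The 4 arrays at 16 hours lay below the 4 arrays at 4 hours, and the groups with and without IFN-γ overlapped at each time. The log2 difference of Hspd1 was -1.14 with IFN-γ (SE 0.20, adjusted p = 0.0245, limma) and -1.08 in medium (SE 0.20, adjusted p = 0.0213, limma), 2.21-fold and 2.12-fold lower, and without both 16-hour arrays numbered 1 it was -0.82 and -0.90. Its dimmer probe set, about 1.2 log2 units above the antisense level, did not show this change, with 7.17 and 6.86 in IFN-γ at 16 hours, against 6.93 and 6.82 in IFN-γ at 4 hours, and 7.13 and 6.85 in medium at 16 hours, against 6.98 and 6.83 in medium at 4 hours. Its log2 differences were 0.14 (95% interval -0.19 to 0.47, adjusted p = 0.707, limma) and 0.09 (-0.24 to 0.42, adjusted p = 0.792, limma). Averaging both probe sets gave -0.50 with IFN-γ (adjusted p = 0.0351, limma) and -0.50 in medium (adjusted p = 0.0293, limma). With IFN-γ, the call of the brighter probe set was lost without either array of IFN-γ at 4 hours (adjusted p = 0.161 and 0.228, limma), array 1 of IFN-γ at 16 hours (0.0546) or either array of medium at 4 hours (0.0579), and the call in medium without either array of medium at 4 hours (0.128 and 0.167) or array 1 of medium at 16 hours (0.124).

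Hspe1, which shares the heat shock element with Hspd1, had a log2 intensity of 8.32 and 8.80 with IFN-γ at 16 hours, against 8.97 and 9.23 with IFN-γ at 4 hours. In medium it had 8.29 and 8.61 at 16 hours, against 8.95 and 9.17 at 4 hours. The groups of the 2 times did not overlap here either, but the gap was smaller than for Hspd1. The log2 difference was -0.54 with IFN-γ (SE 0.18, adjusted p = 0.2, and 0.00663 with the array number blocked, limma) and -0.61 in medium (SE 0.18, adjusted p = 0.115, and 0.00276 with the array number blocked, limma). It was -0.30 and -0.45 without both 16-hour arrays numbered 1. The difference in size between the 2 chaperonin genes was not tested.

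Hspa5 encodes BiP, the HSP70 of the endoplasmic reticulum and a target of the unfolded protein response. Its log2 intensity was 8.72 and 9.47 with IFN-γ at 16 hours, against 9.37 and 9.51 with IFN-γ at 4 hours. In medium it was 8.73 and 9.35 at 16 hours, against 9.29 and 9.39 at 4 hours. Array 2 of each 16-hour group lay among the 4-hour arrays and array 1 lay well below them. The log2 difference was -0.34 with IFN-γ (95% interval -0.91 to 0.22, adjusted p = 0.595, limma) and -0.30 in medium (-0.87 to 0.26, adjusted p = 0.607, limma), and without both 16-hour arrays numbered 1 it was 0.03 and 0.01. A fall of the size seen for Hspa1b lies outside both intervals, whereas falls of the size seen for Hspe1 lie inside them.

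The change over time was then read within each array number. With IFN-γ the 16-hour minus 4-hour log2 differences ran from -1.42 to -0.46 on arrays numbered 1 (median -0.73, 7 of 7 lower) and from -1.18 to 0.05 on arrays numbered 2 (median -0.44, 6 of 7 lower). In medium they ran from -1.42 to -0.26 on arrays numbered 1 (median -0.98, 7 of 7 lower) and from -1.09 to 0.05 on arrays numbered 2 (median -0.81, 6 of 7 lower). Hspa8 was the gene above 0 on the arrays numbered 2, at 0.05 in each. Hspa5 was close to 0 there, at -0.04 in each, but at -0.64 with IFN-γ and -0.56 in medium on arrays numbered 1. With 1 array per time these within-number values carry no test. The share of all probe sets lower in the same array pairs was not counted, so the counts of lower genes have nothing to be read against.

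**Figure D2:**
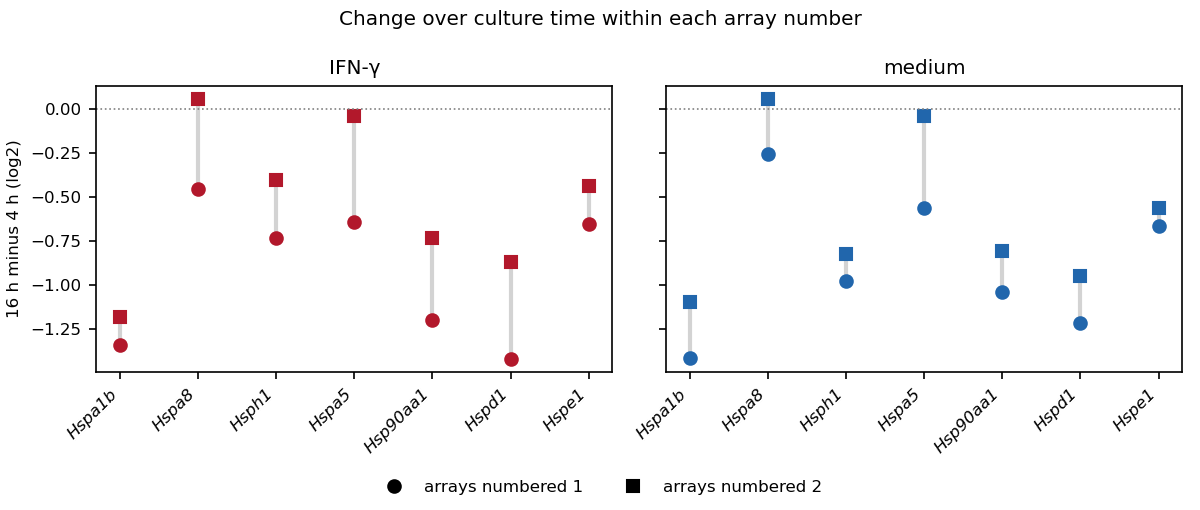
Log2 difference of 16 minus 4 hours (vertical axis) for each gene, with IFN-γ (left) and in medium (right), for the arrays numbered 1 (circles) and numbered 2 (squares) separately. Hspa1b is lower by over 1 log2 unit in all 4 pairs, while Hspa8 and Hspa5 are near 0 on the arrays numbered 2.

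IFN-γ left the heat shock protein genes without a detectable difference from medium. None of 7 genes was called at 16 hours or at 4 hours (limma, adjusted p under 0.05), where 0.258% of all probe sets were called at each time. None had an unadjusted p under 0.05 either, and the groups of all 7 genes overlapped. With the array number as a block none of 7 was called, against 0.845% of all probe sets at 16 hours and 1.26% at 4 hours. At 16 hours the log2 differences ran from -0.08 for Hspa8 to 0.26 for Hsph1, and at 4 hours from -0.07 for Hsph1 to 0.10 for Hspa5. The 95% intervals lay within -0.51 to 0.69 at 16 hours and within -0.50 to 0.66 at 4 hours. For Hspa1b the interval was -0.26 to 0.27 at 4 hours, and at 16 hours its signal lay below the antisense level, so no difference can be read there. Its neighbour Hspa1a, above that level, differed by -0.24 at 16 hours (95% interval -0.49 to 0.01, adjusted p = 1, limma) and by 0.06 at 4 hours. The Hspa1a groups did not overlap at 16 hours, but an exact permutation test of 2 against 2 arrays cannot go below p = 0.333. The share of all probe sets without overlap in that comparison was not counted. The intervals at 16 and 4 hours were -0.49 to 0.43 and -0.43 to 0.49 for Hspd1, and for Hsp90aa1 -0.44 to 0.49 and -0.40 to 0.53. Effects within these intervals remain possible with 2 arrays a group. The intervals are not limits of detection. The fall of Hsp90aa1 over time with IFN-γ, -0.97, was not called either (adjusted p = 0.05003, limma). It was called under 7 of the 18 alternatives.

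**Figure D3:**
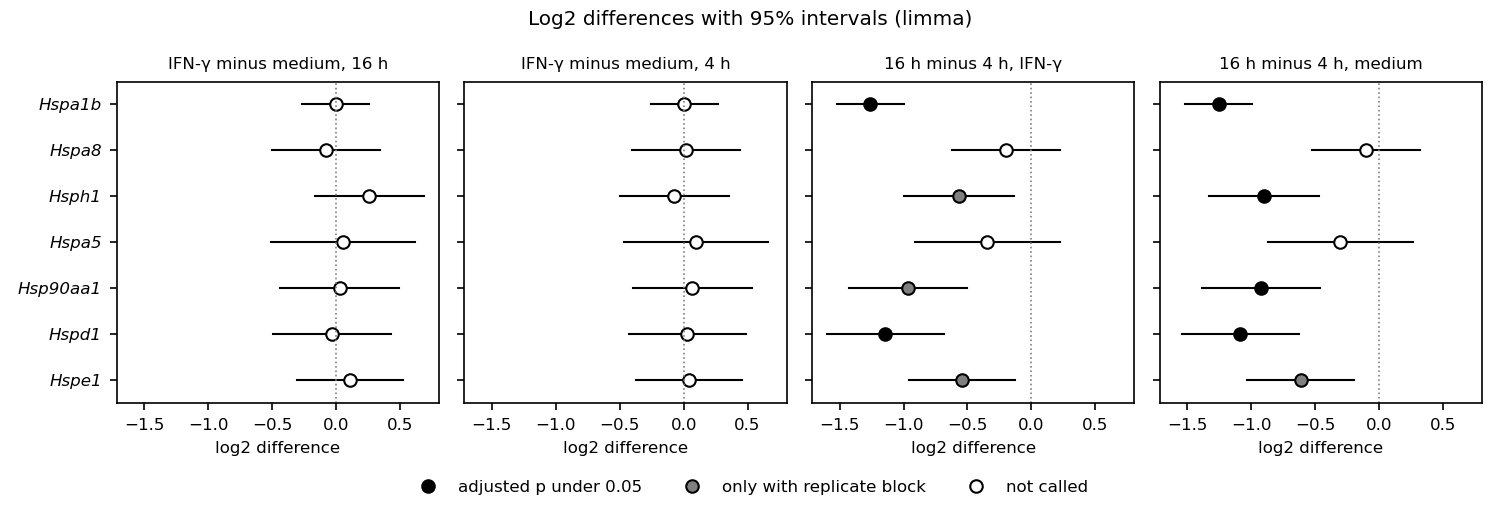
Log2 differences (horizontal axis) with 95% intervals from limma for the 7 genes in 4 comparisons, with filled points called at an adjusted p under 0.05, grey points called with the array number as a block and open points not called. In the IFN-γ panels the points lie between -0.08 and 0.26, and in the panels of time every point lies left of 0.

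Whether IFN-γ altered the change over time was tested as the difference between the 2 time effects. None of 7 genes was called, nor was any of all probe sets (0%, limma, with 353 at an unadjusted p under 0.05), and with the array number as a block none of 7 was called, against 0.242% of all probe sets. The estimates ran from -0.10 for Hspa8 to 0.33 for Hsph1 on the log2 scale, with 95% intervals within -0.84 to 0.94. For Hsph1 the interval was -0.27 to 0.94 (adjusted p = 1, limma), so the values of -0.57 with IFN-γ and -0.90 in medium were not shown to differ. For Hspa1b, read below the antisense level at 16 hours, it was -0.38 to 0.36.

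The genes that work with these chaperones were taken from 11 lists with 99 different genes, 83 of them measured and each read on its brightest probe set. With IFN-γ 3 of 83 were called lower at 16 hours and in medium 11 of 83, and none was called higher in either (limma), where 1.3% and 2.57% of all probe sets were called lower. With the array number as a block these counts were 22 and 26, against 6.94% and 8.09% of all probe sets. Without both 16-hour arrays numbered 1 they were 2 and 8, against 0.861% and 2.34%, and leaving out single arrays moved them between 1 and 13 with IFN-γ and between 1 and 18 in medium. The counts with single arrays left out moved in the same direction as the number of all probe sets called lower. The median log2 difference of the 83 genes was -0.20 with IFN-γ and -0.19 in medium, against 0.05 over all probe sets in each. Block counts for single lists can be read against the same 6.94% with IFN-γ and 8.09% in medium. None of the 83 was called for IFN-γ against medium at either time. Some of the 83 lay below the antisense level in every group, and a change in these could not be read.

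Among HSP70 relatives 1 of 7 was called lower with IFN-γ, Hspa1a, and 2 of 7 in medium, Hspa1a and the mitochondrial HSP70 gene Hspa9 (4 and 3 with the block). Hspa9 had 7.31 and 7.71 with IFN-γ at 16 hours, against 8.09 and 8.29 with IFN-γ at 4 hours, and 7.26 and 7.50 in medium at 16 hours, against 8.29 and 8.44 in medium at 4 hours. Its log2 difference was -0.68 with IFN-γ (adjusted p = 0.0703, and 0.00211 with the array number blocked, limma) and -0.99 in medium (adjusted p = 0.0109, limma). With Hspa9, the proteases Clpp (-0.48, adjusted p = 0.0477, limma) and Lonp1 (-0.51, adjusted p = 0.0463, limma) made 3 of 6 mitochondrial chaperones and proteases lower in medium, though the dimmer probe set of Lonp1 stood at 0.08. With IFN-γ Clpp differed by -0.31 and Lonp1 by -0.32, and none of these 6 was called (2 with the block, against 4 in medium).

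TRiC, the chaperonin of the cytosol that folds actin and tubulin, had 6 of 8 subunit genes below 0 with IFN-γ (median -0.38) and 8 of 8 in medium (median -0.47) on the log2 scale. Cct3 was called in both, with -0.64 with IFN-γ (adjusted p = 0.0209, limma) and -0.63 in medium (adjusted p = 0.0145, limma), and Cct7 in medium alone (-0.52, adjusted p = 0.0443, limma, against -0.29 with IFN-γ, adjusted p = 0.306). The other probe sets of Cct3 were lower too but not all called, at -0.70 and -0.11 with IFN-γ and -0.84 and -0.40 in medium. Cct6a was close to 0 on its brightest probe set (0.12 with IFN-γ and -0.03 in medium) but lower on another (-0.49, adjusted p = 0.0653, and -0.51, adjusted p = 0.0382, limma). The dimmer probe set of Tcp1 stood at -0.03 with IFN-γ and went the other way in medium, at 0.23. That of Cct5 stood at -0.24 with IFN-γ and -0.32 in medium, and neither was called. With the block 5 of 8 genes were called in each, against 6.94% of all probe sets with IFN-γ and 8.09% in medium. Of 5 measured genes of prefoldin, which hands actin and tubulin to TRiC, none was called, and with the block 1 was with IFN-γ (Vbp1, -0.45, adjusted p = 0.0365, limma). Pfdn1 and Pfdn5 lay below the antisense level in every group, so a change in them could not be read.

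Among 14 co-chaperones none was called with IFN-γ and 2 were called lower in medium (3 and 6 with the block). Stip1, which bridges HSP70 and HSP90, differed by -0.54 with IFN-γ (adjusted p = 0.0675, and 0.0121 with the array number blocked, limma) and -0.59 in medium (adjusted p = 0.0357, limma), with a signal within 0.13 of the antisense level at 16 hours, so its size is uncertain. Fkbp4, a prolyl isomerase of steroid receptor complexes, differed by -0.51 (adjusted p = 0.0712, and 0.00644 with the array number blocked, limma) and -0.55 (adjusted p = 0.0384, limma), and its dimmer probe set by -0.50 (adjusted p = 0.132, limma) and -0.63 (adjusted p = 0.0462, limma). Of 15 J-domain genes 1 was called in each (4 in each with the block), Dnajc1, which encodes a J protein of the endoplasmic reticulum, at -0.66 with IFN-γ (adjusted p = 0.0446, limma) and -0.64 in medium (adjusted p = 0.0357, limma), while its dimmer probe set was not called (-0.19 and -0.14). Dnajb1, the J protein partner of inducible HSP70, stood at -0.25 and -0.16 (adjusted p = 0.516 and 0.642, limma).

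Small heat shock proteins and heat shock factors gave no calls, with or without the block. The 5 small heat shock protein genes had a median log2 difference of 0.10 with IFN-γ and 0.17 in medium, but Hspb1 and Cryab lay below the antisense level in every group, so a change in them could not be read. The heat shock factor list had 3 measured genes, with a median of 0.08 and 0.10. They were Hsf2, Hsf4 and Hsbp1, which encodes a binding protein of such factors. Hsf2 and Hsf4 lay likewise below the antisense level, and Hsf1 was not measured. A change in a heat shock factor could therefore not be read. None of 15 chaperones and folding enzymes of the endoplasmic reticulum was called (with the block 1 in medium, Creld2, -0.37, adjusted p = 0.0239, limma). Their medians were -0.01 and 0.04, but Calr, Hyou1 and Dnajb9 lay below the antisense level in every group and could not show a change. Hsp90b1, the HSP90 of that compartment, differed by -0.01 with IFN-γ and -0.22 in medium (adjusted p = 0.979 and 0.452, limma). Of 10 unfolded protein response regulators none was called with IFN-γ and 2 were called lower in medium (4 in each with the block). They were Atf4, the transcription factor of the integrated stress response (-0.53 with IFN-γ, adjusted p = 0.0675, and -0.58 in medium, adjusted p = 0.0337, limma), and Ppp1r15a, which reverses that response (-0.57, adjusted p = 0.0502, and -0.54, adjusted p = 0.0424, limma). Xbp1, the transcription factor of the IRE1 branch, stood at 0.21 and 0.16 and was not called. Atf6 and Eif2ak3 lay below the antisense level in every group, so a change in them could not be read.

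**Figure D4:**
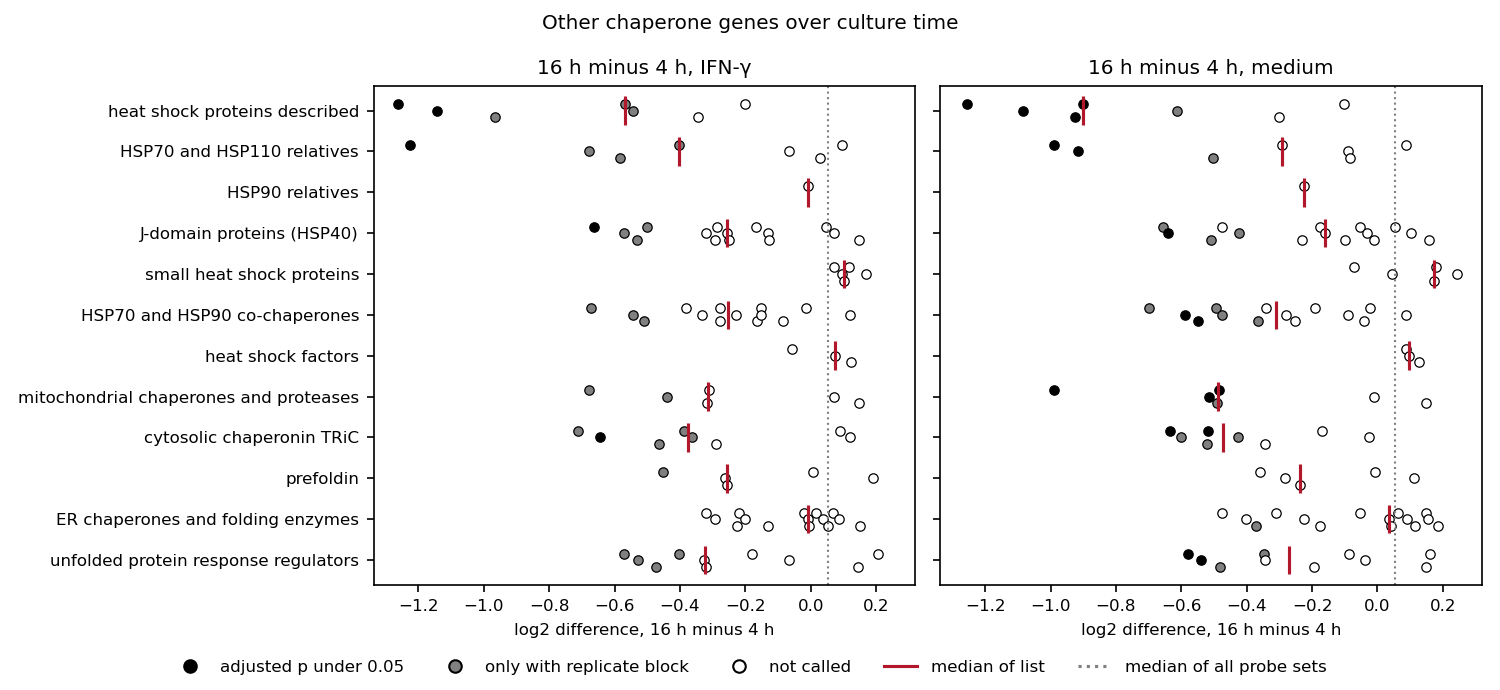
Log2 difference of 16 minus 4 hours (horizontal axis) for the heat shock protein genes on their brightest probe sets and for each chaperone list, with IFN-γ (left) and in medium (right), where filled points were called, grey points were called with the array number as a block, red bars are list medians and the dotted line is the median of all probe sets. The TRiC and mitochondrial lists lie left of the dotted line with medians of -0.38 and -0.31 with IFN-γ and -0.47 and -0.49 in medium. The endoplasmic reticulum list is centred near that line, though its Calr, Hyou1 and Dnajb9 lay below the antisense level in every group.

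Genes with the most similar profile were looked up for the pair of genes with the smallest p over time in medium, among 4374 genes with a mean log2 intensity of at least 6. Likeness was the root mean square difference between log2 profiles over the 8 arrays, each centred on its own mean. Nearest to Hspa1b were Fdps (0.119), which makes farnesyl diphosphate for sterols, Gadd45b (0.134), a stress-induced growth arrest gene, Fscn1 (0.15), an actin-bundling protein of mature dendritic cells, and Idi1 (0.151), another enzyme of isoprenoid synthesis. Their log2 differences between 16 and 4 hours lay between -1.26 and -1.04 with IFN-γ and between -1.46 and -1.05 in medium. Nearest to Hspd1 were Ipo5 (0.0715), a nuclear import receptor, Psat1 (0.102), an enzyme of serine synthesis, Prmt1 (0.11), an arginine methyltransferase, and Socs2 (0.12), an inhibitor of cytokine signalling. Ipo5 differed by -1.14 with IFN-γ and -1.13 in medium, next to -1.14 and -1.08 for Hspd1. All profiles come from the same 8 arrays, and the likeness is a description.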

How the data were processed

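The authors deposited 1 intensity per probe set and array on a linear scale (2.65 to 12523.5), made with RMA per the submitters' processing notes, its version not given in the sources used here. These were taken to log2 with no pseudocount. The 66 controls among the 12488 probe sets were dropped. Symbols came from the platform annotation (10833 probe sets with 1 symbol, 396 with several, 1193 unlisted), and a gene was read on its probe set with the highest mean, those of the heat shock proteins being all given. RefSeq promoter windows are of GRCm38.p6; the array names no build.

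Differences were tested with limma 3.58.1 in R 4.3.3 (lmFit on 4 group means over 8 arrays, eBayes, two-sided), adjusted by Benjamini-Hochberg over 12422 probe sets and called under 0.05, and the steps were tested on simulated data. An exact permutation test of 2 against 2 arrays cannot go below p = 0.333. Array numbers come from the sample titles. The differences between arrays 1 and 2 correlated between groups at r = 0.367 to 0.740 in all 6 pairs of groups, so the numbers pair the arrays, judged from the data, and blocked counts are printed for the heat shock proteins and chaperone lists over time, and a blocked p where it alters the call of a heat shock protein. The heat shock proteins, chaperone lists, marker lists and rules were chosen with earlier results of these data known. Named genes are all heat shock proteins of the rule, list genes under 0.05 over time in either medium, up to 4 of each list by p, and the 4 most similar genes for each of 2 heat shock proteins. Other list genes (Dnajb1, Xbp1, Hspb1, Cryab, Cct6a, Cct5, Tcp1, Atf6, Eif2ak3) and the markers named were chosen after their values were seen. The settings varied were the scaling (quantile or median), a filter of the dimmest 40%, the prior (trended, robust), a fit of the compared arrays alone, the block, the threshold (0.01, or a log2 size of 1), 1 mean per gene, each array dropped in turn and, added after seeing the data, leaving out both 16-hour arrays numbered 1.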

Additional observations from a re-analysis of the deposited data

How the results depend on the processing

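Of 7 heat shock protein genes, the 4 called lower at 16 hours in medium became 5 with the array number as a block and 5 in a fit of only the arrays compared, 3 with 1 mean value per gene, 1 at an adjusted p under 0.01 and 2 at a log2 difference of at least 1. Leaving out single arrays moved this count between 1 and 5. The 2 called with IFN-γ became 5 with the block, 3 with quantile normalization and 1 at an adjusted p under 0.01, and moved between 1 and 5 with single arrays left out. In medium the count was 1 without either array of medium at 4 hours or array 1 of medium at 16 hours, and 5 without either array of IFN-γ at 16 hours. With IFN-γ it was 1 without any single array at 4 hours or array 1 of IFN-γ at 16 hours, and 5 without array 2 of IFN-γ at 16 hours. The lone array left in a group was assumed to vary like the other groups. With single arrays left out, the number of all probe sets called lower moved in the same direction. In medium 319 of 12422 probe sets were called lower, 1005 with the block and 467 in a fit of only the arrays compared. With 1 mean value per gene it was 246 of 8251 genes. With IFN-γ 161 of 12422 probe sets were called lower, 862 with the block and 166 with quantile normalization. For an adjusted p under 0.01 and a log2 difference of at least 1, no count over all probe sets is given here. The gene counts under those thresholds therefore have no share to be read against. The block changed no call of the 9 probe sets beyond those printed beside the results. Quantile normalization, median centring, the filter on dim probe sets, the prior and leaving out both 16-hour arrays numbered 1 each left the count in medium at 4. None was called for IFN-γ at either time, or for the difference of the time effects, under any alternative run. The causes of these shifts were not tested, apart from the thresholds, which are stricter by construction, and the single arrays left out, which leave fewer arrays.

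Signs turned for differences that were never called. Over time, Hspa8 in medium was 0.049 with quantile normalization, and -0.29 to 0.088 with single arrays left out. Hspa8 with IFN-γ ran from -0.48 to 0.078 and Hspa5 from -0.72 to 0.029 with IFN-γ and from -0.61 to 0.012 in medium. Without both 16-hour arrays numbered 1, Hspa8 was 0.078 with IFN-γ and 0.088 in medium, and Hspa5 was 0.029 and 0.012. For IFN-γ against medium at 16 hours, that alternative gave 0.0089 for Hspa8 and 0.10 for Hspd1. Quantile normalization gave 0.0090 for Hspa1b and -0.011 for Hsp90aa1, and median centring 0.011 for Hspa1b. With single arrays left out the 16-hour effects ran from -0.088 to 0.083 for Hspa1b, -0.36 to 0.20 for Hspa8, -0.32 to 0.43 for Hspa5, -0.28 to 0.34 for Hsp90aa1, -0.35 to 0.29 for Hspd1 and -0.13 to 0.35 for Hspe1. At 4 hours median centring gave -0.00014 for Hspa1b, and leaving out single arrays gave -0.072 to 0.080 for Hspa1b, -0.016 to 0.053 for Hspa8, -0.016 to 0.15 for Hsp90aa1, -0.028 to 0.084 for Hspd1, -0.091 to 0.17 for Hspe1 and -0.21 to 0.064 for Hsph1. The difference of the time effects was 0.0067 for Hspa1b with quantile normalization and 0.011 with median centring. Without both 16-hour arrays numbered 1 it was 0.017 for Hspa5, 0.071 for Hsp90aa1 and 0.076 for Hspd1. With single arrays left out it ran from -0.092 to 0.079 for Hspa1b, -0.38 to 0.18 for Hspa8, -0.42 to 0.33 for Hspa5, -0.35 to 0.27 for Hsp90aa1, -0.38 to 0.26 for Hspd1 and -0.17 to 0.31 for Hspe1. The cause was not tested. Signal near or below the antisense controls limits the size given for Hspa1b and the dimmer probe set of Hsp90aa1.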
